A study of Homo sapiens with 6 samples.

Results

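The 10 genes VEGFA, CA9, ADM, BNIP3, BNIP3L, NDRG1, EGLN1, EGLN3, ANKRD37 and KDM3A are targets of the hypoxia-inducible factors (HIF) that do not encode glycolytic enzymes. They were taken by symbol from the 40111 genes of the deposited expression table, which held all 10, and 9 of them were high enough to be tested. RNA-seq of poly(A) RNA was made from cells labelled BE(2)-M17, a neuroblastoma line, in 3 control libraries labelled NC and in 3 libraries with a CRISPR-Cas9 knockdown of LINC00894, a long non-coding RNA. The design sets cells with less LINC00894 beside cells without that knockdown. Both groups share the cell line, and the labels name no drug, oxygen level or time point for either of them. They do not say whether the knockdown cells were 1 clone or a pool, nor whether replicates are separate cultures. The p-values therefore reflect spread among these 6 libraries alone, and that spread may be technical.

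HIF is a pair of transcription factor subunits, an oxygen-regulated alpha subunit (HIF1A or EPAS1) and a stable partner (ARNT). When oxygen is plentiful, prolyl hydroxylases of the EGLN family mark the alpha subunit, the VHL ubiquitin ligase takes it up and it is degraded. When oxygen is scarce the alpha subunit accumulates and the dimer binds short elements with the core ACGTG or GCGTG. The regulation is mainly of protein, so that mRNA of HIF1A need not follow it. Among the targets outside glycolysis are secreted factors (VEGFA, ADM), an enzyme of pH control (CA9), receptors for mitochondrial removal (BNIP3, BNIP3L), the hydroxylases themselves as feedback (EGLN1, EGLN3), a histone demethylase (KDM3A), and NDRG1 and ANKRD37. Several of these genes also answer to other stresses.

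The libraries held between 22898079 and 48089716 assigned reads, and levels are in FPKM, reads scaled to gene length and library depth. LINC00894 stood at 2.00, 2.24 and 2.21 FPKM across controls 1 to 3 and at 1.10, 1.30 and 0.867 FPKM across knockdowns 1 to 3. It passed the test (log2 fold change -0.93, SE 0.17, limma adjusted p = 0.0406). ATF3, a stress-induced transcription factor, fell by 1.01 (SE 0.20, limma adjusted p = 0.0415). Neither passed when any one library other than control 1 was left out, and no other gene tested did. Control 1 stood apart from the other controls. The chi-square per gene between pairs of libraries of 1 group was 70.3 and 80.2 for control 1 against controls 2 and 3, 11.5 between controls 2 and 3, and between 3.77 and 7.08 within the knockdown group. Its distance to the mean of the knockdowns was smaller than its distance to the mean of controls 2 and 3 in 60.8% of the 18548 genes tested. Over a list of 10 heat shock genes the summed level was 3350 FPKM in control 1, 1540 and 1380 FPKM for controls 2 and 3, and between 3310 and 4070 FPKM across the knockdowns. Red cell markers (9 genes) summed to between 3.65 and 66.1 FPKM over the controls and between 374 and 854 FPKM across the knockdowns. Neutrophil and monocyte markers (10 genes) summed to 3, 1.33 and 280 FPKM across controls 1 to 3 and to between 53.1 and 188 FPKM across the knockdowns, with CD68 at most 0.0979 FPKM. Of 14 neuroblast markers, 8 were under 0.5 FPKM in every library, among them MYCN between 0.162 and 0.267 FPKM. BE(2)-M17 is known as a line with an amplified MYCN gene, so these markers go against the label. GATA2 (16.2 to 29.7 FPKM), GATA3 (4.12 to 5.58 FPKM) and ISL1 (3.80 to 5.66 FPKM) were present.

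Most of the HIF targets were higher in the knockdown libraries, and VEGFA was lower. Of the 9 tested, 8 had a fold change above 0, and the median log2 fold change was 0.53, against 0.07 over all genes tested. In limma 0 of the 9 passed an adjusted p of 0.05, where 6.2% of all genes tested did (4.14% higher and 2.06% lower), although 7 had an unadjusted p under 0.05, as did 32.6% of all genes. Limma-voom on the reads behind the FPKM values called 4 higher (ADM, BNIP3, NDRG1 and KDM3A) and 0 lower, with 12.4% of all genes called higher and 4.5% lower. Without control 1, limma called 7 higher and 1 lower, where 43.6% of all genes were called, 28.0% as higher and 15.7% as lower. Limma called 0 of the 9 when 1 of the remaining 5 libraries was left out in its place, and 0 of all genes tested. The authors' deposited table has BNIP3 and KDM3A past an adjusted p of 0.05 as higher and VEGFA as lower, where 3.23% of its 40090 genes with a p-value were past it as higher and 4.22% as lower (7.45% in all). The other 7 of the 10 genes did not pass there. The 3 knockdown libraries lay above all 3 controls for 6 of the 9 (ADM, BNIP3, KDM3A, EGLN1, EGLN3 and NDRG1) and below them for VEGFA, and groups that do not overlap made up 38.2% of all genes tested (23.9% higher and 14.3% lower). In bulk RNA fewer cells with a transcript and less of it per cell cannot be told apart.

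**Figure D1:**
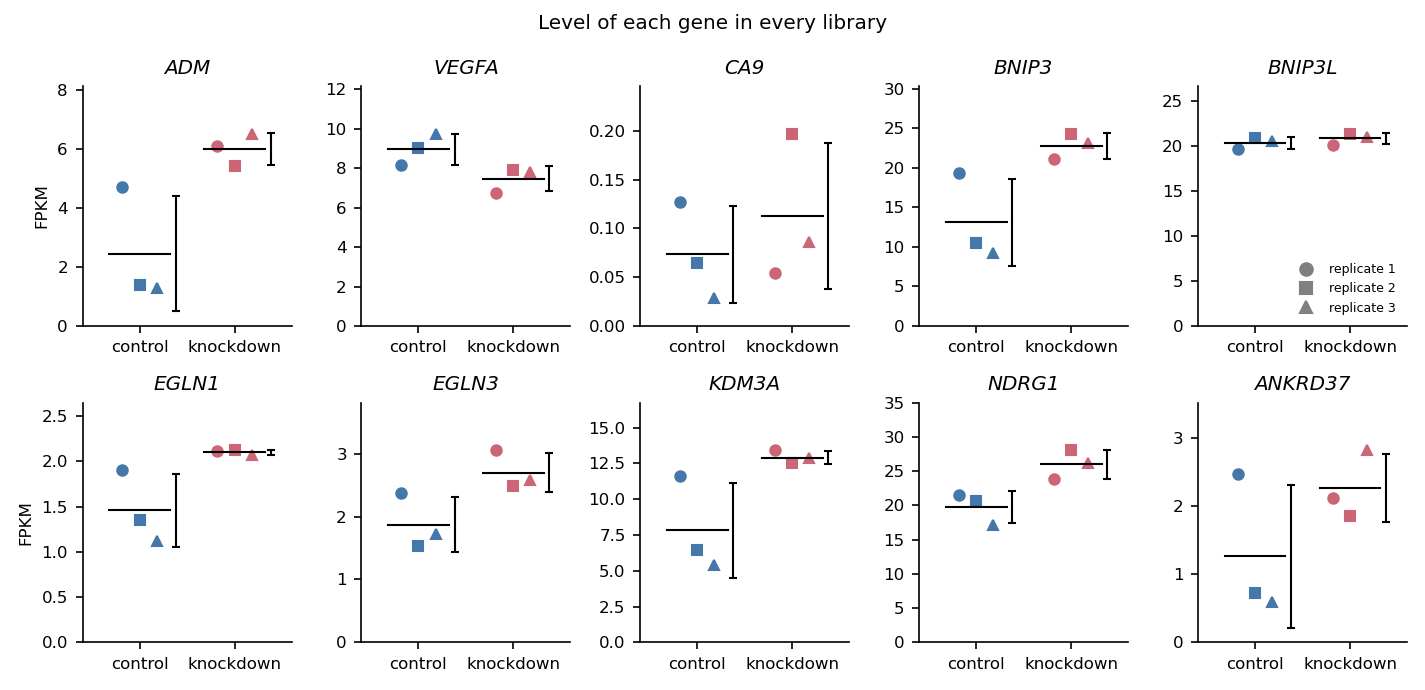
FPKM (vertical axes, from 0) of the 10 genes in each control library (blue) and knockdown library (red), with a symbol for each replicate number. Horizontal lines are group means and the bars beside them the SD over 3 libraries. Control 1 (blue circle) sits above the other 2 blue points and closer to the red ones for ADM, BNIP3, KDM3A, EGLN1, EGLN3 and ANKRD37, and lies with the other blue points for NDRG1.

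The promoters show where a HIF core could lie in the genes that stood furthest apart between libraries. The RefSeq table on GRCh38.p14, which gives 250 bases before and 50 bases after each start site, matched 7 of the 10 genes and did not match VEGFA, BNIP3L and NDRG1. A core, ACGTG or GCGTG on either strand, was in the window of 6 of these 7 genes, and in 48.4% of the 35116 windows of the table. ACGTG alone was in 4 of the 7 and in 21.4% of all windows. GCGTG alone was in 3 of the 7 and in 36.5% of all windows. The counts are by gene and the shares by window, and a gene such as KDM3A can have more than 1 window. The windows of BNIP3 (chr10:131981874-131982173, minus strand), ANKRD37 (chr4:185396591-185396890, plus strand), ADM (chr11:10304823-10305122, plus strand) and KDM3A (chr2:86441121-86441420, plus strand) are printed 5′ to 3′ on the strand of the gene because these 4 genes had the largest fold changes. Capitals mark the cores, read on either strand.
BNIP3: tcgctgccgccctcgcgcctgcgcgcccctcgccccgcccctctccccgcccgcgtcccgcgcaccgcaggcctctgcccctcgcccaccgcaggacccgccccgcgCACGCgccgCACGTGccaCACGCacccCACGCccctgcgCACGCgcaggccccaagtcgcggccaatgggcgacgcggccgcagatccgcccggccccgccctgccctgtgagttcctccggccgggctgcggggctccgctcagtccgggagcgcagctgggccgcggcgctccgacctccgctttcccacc
ANKRD37: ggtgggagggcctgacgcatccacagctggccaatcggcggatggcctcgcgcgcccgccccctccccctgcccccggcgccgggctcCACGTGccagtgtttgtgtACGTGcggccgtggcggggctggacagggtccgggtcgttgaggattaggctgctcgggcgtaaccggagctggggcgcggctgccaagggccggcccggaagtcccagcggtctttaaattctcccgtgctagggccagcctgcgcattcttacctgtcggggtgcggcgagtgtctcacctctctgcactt
ADM: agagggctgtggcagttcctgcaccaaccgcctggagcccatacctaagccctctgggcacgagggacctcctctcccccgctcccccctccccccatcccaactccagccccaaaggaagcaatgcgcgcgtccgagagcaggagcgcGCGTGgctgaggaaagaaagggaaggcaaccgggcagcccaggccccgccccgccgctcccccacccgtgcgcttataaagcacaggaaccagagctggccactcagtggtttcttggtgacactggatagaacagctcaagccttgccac
KDM3A: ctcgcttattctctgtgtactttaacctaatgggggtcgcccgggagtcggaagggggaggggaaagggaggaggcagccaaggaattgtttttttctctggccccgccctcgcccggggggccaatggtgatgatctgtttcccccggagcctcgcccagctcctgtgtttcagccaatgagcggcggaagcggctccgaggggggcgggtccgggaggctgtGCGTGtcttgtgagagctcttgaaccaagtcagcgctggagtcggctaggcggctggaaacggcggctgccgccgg
BNIP3 had the densest stretch, with 6 core matches between bases -143 and -100 from its start site. Of these, 2 are the strands of 1 E-box, CACGTG, which contains ACGTG in both directions. ANKRD37 had 3 ACGTG matches, again 2 of them from 1 CACGTG, an element found in 7.26% of all windows. ADM and KDM3A each had 1 GCGTG in the window shown, CA9 and EGLN1 each had 1 ACGTG, and EGLN3 had no match in these letters. The letters TGACGT, part of the site bound by ATF and CREB factors, were in the window of none of the 7 genes (7.98% of all windows). A match in these windows is a description of sequence and not a measured binding site.

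Among the secreted factors, ADM (ENSG00000148926, chromosome 11, 10304680 to 10307397 on GRCh38) had the largest fold change of the 10 genes. It encodes adrenomedullin, a peptide that widens blood vessels. ADM measured 4.73, 1.38 and 1.28 FPKM across controls 1 to 3 and 6.10, 5.42 and 6.52 FPKM across knockdowns 1 to 3. All knockdown libraries were above all controls, and control 1 lay close below them while controls 2 and 3 were far lower. The log2 fold change was 1.51 (SE 0.47, 3 against 3 libraries), or 2.84-fold, with an adjusted p of 0.0891 in limma and 0.0278 in limma-voom. Without control 1 the log2 fold change was 2.09 (limma adjusted p = 0.000469). In the authors' deposited comparison it was 1.2 with an adjusted p of 0.234. On the log2(FPKM + 0.1) scale control 1 exceeded the mean of controls 2 and 3 by 1.76, and the knockdown mean exceeded control 1 by 0.34. ADM rested on 322, 154 and 129 reads in the controls and on 325, 357 and 436 reads in the knockdowns. The heat shock sum was high in the same 4 libraries, and its part in the ADM values was not tested. Red cell markers summed to 6.22, 3.65 and 66.1 FPKM across controls 1 to 3 and to between 374 and 854 FPKM across the knockdowns, and their part in the ADM values was not tested either.

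The receptor and relatives of ADM did not pass the test. The list of 8 genes had 6 tested, with 0 past the limma threshold (1 at an unadjusted p under 0.05, 1 lower in limma-voom) and a median log2 fold change of -0.10. For all genes tested the shares were 6.2% past limma, 32.6% at that unadjusted p and 4.5% lower in limma-voom. CALCRL, the receptor that binds adrenomedullin with a RAMP partner, had a log2 fold change of 0.05 (adjusted p = 0.886 in limma) and was near 1 FPKM or below. CALCB, the gene of a related peptide, had the smallest p of the list. CALCB read 8.31, 21.1 and 17.4 FPKM across controls 1 to 3 and 5.71, 5.41 and 6.04 FPKM across the knockdowns. Its log2 fold change was -1.33 (SE 0.33, limma adjusted p = 0.0592). Control 1 was nearer to the knockdowns for CALCB too, on the opposite side from ADM. ADM5, a further relative, read 1.17 FPKM in control 1, 0.182 and 0.175 FPKM for controls 2 and 3, and between 0.839 and 0.986 FPKM across the knockdowns. RAMP2, a RAMP partner of CALCRL, had a log2 fold change of -0.68, and RAMP1, another such partner, had -0.25, with limma adjusted p of 0.226 and 0.461.

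VEGFA was the 1 gene of the 10 with a lower level in every knockdown library than in any control. VEGFA (ENSG00000112715, chromosome 6, 43770184 to 43786487) encodes vascular endothelial growth factor A, the main signal for new vessels in hypoxic tissue. Its values were 8.17, 9.01 and 9.74 FPKM across controls 1 to 3 and 6.73, 7.92 and 7.79 FPKM across knockdowns 1 to 3. The groups did not overlap, but control 1 and knockdown 2 were close. VEGFA had a log2 fold change of -0.26 (SE 0.10, 3 against 3 libraries), 1.20-fold lower, with an adjusted p of 0.137 in limma and 0.0911 in limma-voom. Without control 1 it was -0.32 (limma adjusted p = 0.0314). The authors' deposited table gives VEGFA a log2 fold change of -0.39 with an adjusted p of 0.0495. VEGFA rested on between 2224 and 6250 reads per library, and an antisense gene, AL136131.3, shares 188 bases of exon with it.

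VEGFA was not alone among the VEGF genes in lying lower, though 0 of 8 tested passed limma's threshold (4 at an unadjusted p under 0.05, 1 lower in limma-voom) and the list's median was -0.07. For all genes tested the shares were 6.2% past limma, 32.6% at that unadjusted p and 4.5% lower in limma-voom. NRP2, a co-receptor for VEGF family ligands, read 2.95, 3.50 and 3.99 FPKM across controls 1 to 3 and 2.17, 2.49 and 2.47 FPKM across the knockdowns, for a log2 fold change of -0.52 (limma adjusted p = 0.0658). FLT4, the receptor of VEGFC and VEGFD, had -0.37, and VEGFB, a ligand of FLT1, had -0.43, with limma adjusted p of 0.0908 and 0.128. PGF, placental growth factor, had 0.60 in the other direction (limma adjusted p = 0.139). PGF read 4.64 FPKM in control 1 against 2.82 and 2.45 FPKM for controls 2 and 3, and between 4.41 and 5.49 FPKM across the knockdowns. NRP2, FLT4 and NRP1, 3 of the 8, were lower in every knockdown library than in any control, as VEGFA was. NRP1, another co-receptor, had a log2 fold change of only -0.11 (limma adjusted p = 0.474). The groups overlapped for VEGFB and PGF. Of all genes tested 14.3% lay lower without overlap.

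CA9 was barely detected. CA9 (ENSG00000107159, chromosome 9, 35673856 to 35681159) encodes carbonic anhydrase 9, a cell-surface enzyme that is a common marker of hypoxic tumour cells. It stood at 0.127, 0.0647 and 0.0288 FPKM across controls 1 to 3 and at 0.0543, 0.197 and 0.0864 FPKM across knockdowns 1 to 3. The groups overlapped, and the gene was under the minimum of 0.5 FPKM in at least 3 libraries and was not tested. Those values rest on 13 reads over the controls and 15 over the knockdowns, a ratio per assigned read of 1.74 (exact 95% interval 0.772 to 3.97, counting error only). The gene model shares 643 bases of exon with ARHGEF39 on the other strand, which read between 2.52 and 4.41 FPKM, and the library protocol names no step that keeps strand, so reads there cannot be assigned to one gene.

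The mitophagy receptors BNIP3 and BNIP3L, which are close relatives on the outer mitochondrial membrane that bring mitochondria to the autophagy machinery, had unlike values. BNIP3 (ENSG00000176171, chromosome 10, 131966455 to 131982013) read 19.4, 10.5 and 9.28 FPKM across controls 1 to 3 and 21.1, 24.3 and 23.1 FPKM across knockdowns 1 to 3. The knockdowns were above every control, with control 1 just below them. The log2 fold change of BNIP3 was 0.88 (SE 0.27, 3 against 3 libraries), or 1.84-fold, with an adjusted p of 0.0857 in limma and 0.0367 in limma-voom. It was 1.20 without control 1 (limma adjusted p = 0.000727), and the authors' deposited table gives 0.70 with an adjusted p of 0.0116. BNIP3 reads could be shared with its many pseudogenes. Those in the deposited table were low, the highest being BNIP3P11 at up to 2.97 FPKM in control 1.

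A pair of antisense transcripts annotated within the BNIP3 locus, sharing no exon base with it, had the same split among the controls. AL162274.2 read 9.05, 2.00 and 2.16 FPKM across controls 1 to 3 and 4.47, 7.55 and 7.74 FPKM across the knockdowns. AL162274.1 read 2.74, 1.16 and 1.16 FPKM across controls 1 to 3 and 2.94, 3.41 and 2.37 FPKM across the knockdowns. Both were chosen for their place and not by a test, and without strand their reads cannot be told from unspliced BNIP3 RNA. Control 1 was the highest library for AL162274.2 and lay among the knockdowns for AL162274.1.

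BNIP3L (ENSG00000104765, chromosome 8, 26382898 to 26505636), also called NIX and best known for clearing mitochondria from maturing red cells, was level across the 6 libraries. Its values were 19.6, 20.9 and 20.5 FPKM across controls 1 to 3 and 20.1, 21.3 and 21.0 FPKM across knockdowns 1 to 3. The groups overlapped almost fully. With median-of-ratios scaling the log2 fold change was -0.04, and in the authors' deposited comparison it was -0.09 (their adjusted p = 0.856). In the main fit it was 0.03 with a 95% interval of -0.11 to 0.18 (limma adjusted p = 0.73). The interval bounds the change of BNIP3L at the size of a log2 fold change of 0.18 upward, below the estimate of 0.88 for BNIP3. BNIP3L and BNIP3 were measured with like depth, at 1908 to 4177 and 2135 to 3672 reads per library, and no test of the difference between them was run. PNMA2 on the other strand shares 330 bases of exon with BNIP3L.

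The HIF prolyl hydroxylases EGLN1 and EGLN3 were both higher in the knockdown libraries. EGLN1 (ENSG00000135766, chromosome 1, 231363751 to 231425044) encodes PHD2, the main oxygen sensor of the HIF pathway. It read 1.90, 1.35 and 1.12 FPKM across controls 1 to 3 and 2.11, 2.12 and 2.07 FPKM across knockdowns 1 to 3. The knockdown values were nearly equal and above all controls, while the controls spread from control 1 downward. EGLN1 had a log2 fold change of 0.53 (SE 0.20, 3 against 3 libraries), 1.44-fold, and an adjusted p of 0.126 in limma and 0.0599 in limma-voom. Without control 1 it was 0.73 (limma adjusted p = 0.00647). In the authors' deposited comparison it was 0.42 with an adjusted p of 0.223.

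EGLN3 (ENSG00000129521, chromosome 14, 33924231 to 34462774) encodes PHD3, the family member known for its strong induction by HIF. EGLN3 measured 2.37, 1.53 and 1.72 FPKM across controls 1 to 3 and 3.05, 2.48 and 2.58 FPKM across knockdowns 1 to 3. Control 1 was close to knockdown 2, and the groups did not overlap. The log2 fold change was 0.52 (SE 0.18, 3 against 3 libraries), also 1.44-fold, with an adjusted p of 0.112 in limma and 0.0522 in limma-voom. It was 0.70 without control 1 (limma adjusted p = 0.00797), and 0.42 with an adjusted p of 0.141 in the authors' deposited comparison. EGLN2, the third hydroxylase and not a typical HIF target, read 1.64, 0.990 and 1.05 FPKM across controls 1 to 3 and between 1.18 and 1.34 FPKM across the knockdowns. EGLN2 had a log2 fold change of 0.09 (limma adjusted p = 0.807), and its groups overlapped because control 1 was the highest library.

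KDM3A (ENSG00000115548, chromosome 2, 86440647 to 86492716) encodes a demethylase of histone H3 lysine 9. It read 11.6, 6.45 and 5.43 FPKM across controls 1 to 3 and 13.4, 12.5 and 12.9 FPKM across knockdowns 1 to 3. The knockdowns lay in a narrow band above the controls, and control 1 was close under that band. KDM3A had a log2 fold change of 0.79 (SE 0.26, 3 against 3 libraries), 1.73-fold, with an adjusted p of 0.101 in limma and 0.0486 in limma-voom. It was 1.11 without control 1 (limma adjusted p = 0.00084), and 0.62 with an adjusted p of 0.0288 in the authors' deposited table. Its relatives KDM3B and JMJD1C, which are not known as HIF targets, had log2 fold changes of 0.09 and 0.11 (limma adjusted p of 0.39 and 0.305).

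NDRG1 had the smallest adjusted p of the 9 genes tested, and control 1 lay nearer to the other controls than to the knockdowns. NDRG1 (ENSG00000104419, chromosome 8, 133237171 to 133302022) encodes a cytoplasmic stress protein that MYC family factors repress. The levels were 21.5, 20.7 and 17.1 FPKM across controls 1 to 3 and 23.8, 28.0 and 26.2 FPKM across knockdowns 1 to 3. All knockdowns exceeded all controls, with knockdown 1 nearest to control 1. The log2 fold change was 0.40 (SE 0.11, 3 against 3 libraries), or 1.32-fold, with an adjusted p of 0.0698 in limma and 0.0367 in limma-voom. NDRG1 kept nearly the same fold change without control 1, at 0.46 (limma adjusted p = 0.0157). With any one other library left out it was between 0.30 and 0.46 (limma adjusted p between 0.141 and 0.198). In the authors' deposited comparison it was 0.28 with an adjusted p of 0.159. Control 1 exceeded the mean of controls 2 and 3 by 0.19, and the knockdown mean exceeded control 1 by 0.27 on the log2 scale. The relatives NDRG2, NDRG3 and NDRG4 had -0.30, -0.20 and -0.43 (limma adjusted p of 0.0878, 0.2 and 0.0568). Together with KDM3B and JMJD1C these 5 relatives had 0 past the limma threshold (2 at an unadjusted p under 0.05, 1 lower in limma-voom) and a median log2 fold change of -0.20. For all genes tested the shares were 6.2% past limma, 32.6% at that unadjusted p and 4.5% lower in limma-voom.

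For ANKRD37 control 1 came out among the knockdowns. ANKRD37 (ENSG00000186352, chromosome 4, 185396021 to 185400628) encodes a small ankyrin repeat protein and is among the genes often used to mark HIF activity. It read 2.47, 0.720 and 0.596 FPKM across controls 1 to 3 and 2.11, 1.85 and 2.81 FPKM across knockdowns 1 to 3. Control 1 was above knockdowns 1 and 2, so the groups overlapped, while controls 2 and 3 were below all of them. The log2 fold change was 1.03 (SE 0.50, 3 against 3 libraries), with an adjusted p of 0.202 in limma and 0.0836 in limma-voom. Without control 1 it was 1.62 (limma adjusted p = 0.00263). In the authors' deposited comparison it was 0.77 with an adjusted p of 0.33. ANKRD37 shares 909 bases of exon with UFSP2 on the other strand, which read between 4.78 and 5.77 FPKM with no like split, and reads in that stretch cannot be assigned to one of the genes.

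**Figure D2:**
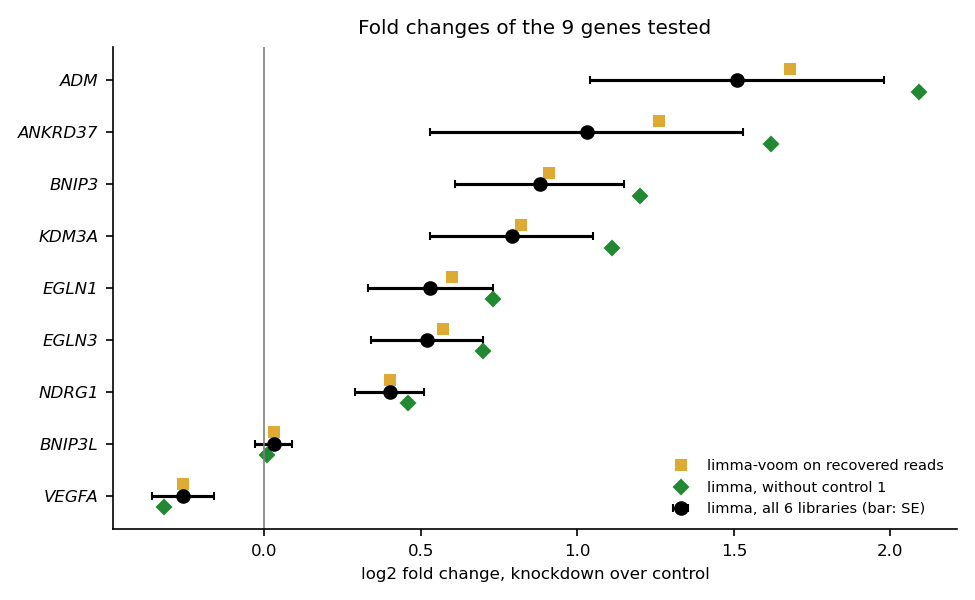
Log2 fold change of knockdown over control (horizontal axis) for the 9 genes tested, in limma on all 6 libraries (black circles, with the SE as a bar), in limma-voom (yellow squares) and in limma without control 1 (green diamonds). Leaving out control 1 moves ADM from 1.51 to 2.09 and ANKRD37 from 1.03 to 1.62, and leaves BNIP3L near 0.

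By level, the 10 genes fell into an order that was in part the same in both groups. Per length, NDRG1 had the highest mean over the 6 libraries at 22.9 FPKM, followed by BNIP3L at 20.6, BNIP3 at 18, KDM3A at 10.4, VEGFA at 8.23, ADM at 4.24, EGLN3 at 2.29, EGLN1 at 1.78, ANKRD37 at 1.76 and CA9 at 0.0932 FPKM. NDRG1 and BNIP3L did not differ beyond their spread in the controls, at 19.8 ± 2.33 and 20.3 ± 0.688 FPKM (SD, n = 3). In the knockdowns they stood at 26.0 ± 2.10 and 20.8 ± 0.647 FPKM. EGLN1 and ANKRD37 overlapped in both groups, with 1.46 ± 0.404 and 1.26 ± 1.05 FPKM over the control libraries and 2.10 ± 0.0269 and 2.26 ± 0.495 FPKM across the knockdowns. BNIP3 stood below BNIP3L in every control, at a mean of 13.1 against 20.3 FPKM, and above it in every knockdown, at 22.8 against 20.8 FPKM. In control 1 they were nearly equal, at 19.4 and 19.6 FPKM, so the gap in the controls came from controls 2 and 3. In knockdown 1 they were close too, at 21.1 and 20.1 FPKM. KDM3A had a lower control mean than VEGFA, at 7.82 ± 3.30 against 8.97 ± 0.788 FPKM, within their spread. It was above VEGFA in control 1, at 11.6 against 8.17 FPKM, and below it in controls 2 and 3. In the knockdowns KDM3A stood above VEGFA, at 12.9 ± 0.445 against 7.48 ± 0.653 FPKM.

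Control 1 lay on different sides for different genes. It lay closer to the knockdowns than to controls 2 and 3 for 7 of the 9 genes tested, against 60.8% of all genes tested, the exceptions being NDRG1 and BNIP3L. Over the 9 genes control 1 exceeded controls 2 and 3 by a median of 0.59 on the log2 scale, against 0.08 over all genes tested. The knockdown mean exceeded control 1 by a median of 0.15, against 0.02 over all genes. ADM, BNIP3, NDRG1, EGLN3, KDM3A and EGLN1 had the knockdown mean above control 1, by between 0.14 and 0.34. For ANKRD37 and VEGFA the knockdown mean minus control 1 was -0.15 and -0.13, and for BNIP3L it was 0.09. With 1 library there is no spread for control 1, and these differences carry no test.

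**Figure D3:**
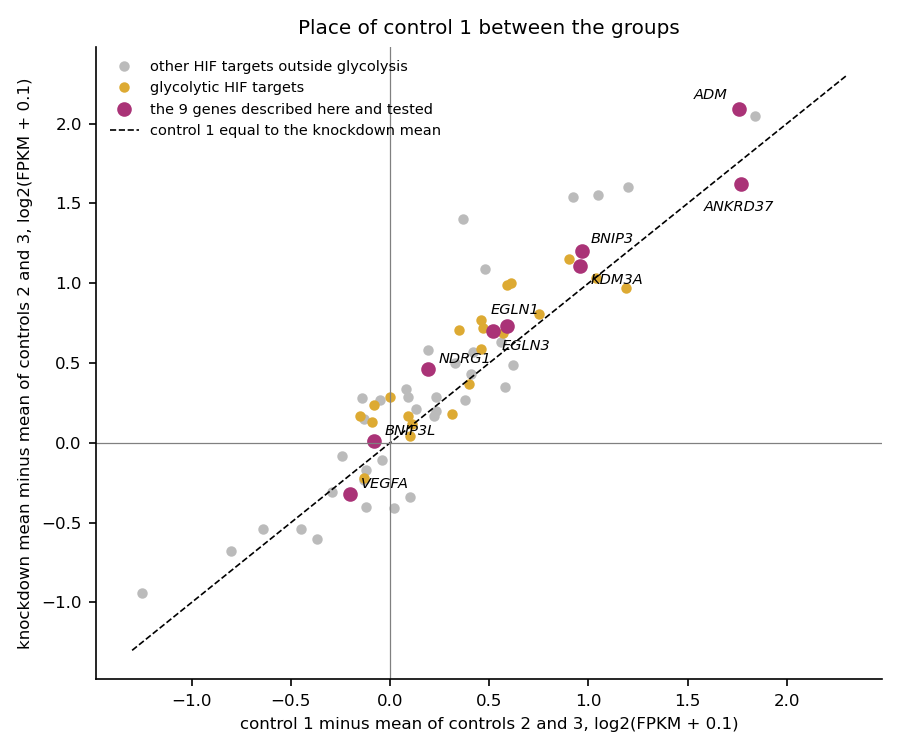
Each point is a gene, placed by how far control 1 (horizontal axis) and the knockdown mean (vertical axis) lay from the mean of controls 2 and 3, both on the log2(FPKM + 0.1) scale. Purple points are the 9 genes tested, yellow points glycolytic HIF targets and grey points other HIF targets. Points on the dashed line have control 1 level with the knockdowns, and KDM3A lies 0.15 above that line. ADM, NDRG1 and BNIP3 lie 0.34, 0.27 and 0.23 above it, NDRG1 nearer to the vertical axis than the other 2.

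The genes that make and regulate HIF had a median fold change close to that of all genes tested. Of 17 HIF subunits and regulators 16 were tested, and 0 passed in limma, with 6 at an unadjusted p under 0.05 and 2 higher in limma-voom. Over all genes tested 32.6% had an unadjusted p under 0.05 and 12.4% were called higher in limma-voom. The list's median log2 fold change was 0.09, beside 0.07 for all genes tested. HIF1A, the oxygen-regulated subunit, read 26.7, 28.8 and 33.9 FPKM across controls 1 to 3 and 28.0, 27.2 and 26.6 FPKM across the knockdowns, with overlapping groups and a log2 fold change of -0.12 (limma adjusted p = 0.412). EPAS1, which encodes HIF-2 alpha, had -0.10 (limma adjusted p = 0.568), between 2.43 and 2.96 FPKM in all libraries. VHL, the ubiquitin ligase subunit that takes HIF alpha to degradation, had the smallest p of the list. VHL measured 16.4, 17.2 and 17.3 FPKM across controls 1 to 3 and 14.2, 14.8 and 13.7 FPKM across the knockdowns. Its log2 fold change was -0.25 (SE 0.06, limma adjusted p = 0.0624), and control 1 stood with the other controls. The co-activators EP300 and CREBBP had 0.40 and 0.50 and the ARNT relative ARNT2 had 0.47, with limma adjusted p of 0.0702, 0.0988 and 0.0792. Protein levels of these factors were not measured.

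Other HIF targets outside glycolysis were mixed in direction. A list of 43 such genes, written with earlier results of these data known, had 37 tested, of which 2 rose, 1 fell and 34 did not pass in limma, with a median of 0.16. Over all genes tested 4.14% rose and 2.06% fell. With median-of-ratios scaling the list had 0 higher and 2 lower, so that neither higher call held. MIR210HG, the host transcript of the hypoxia-induced microRNA miR-210, read 0.751, 0.645 and 0.479 FPKM across controls 1 to 3 and 1.17, 1.90 and 1.96 FPKM across the knockdowns. It rose by 1.28 on the log2 scale (SE 0.27, limma adjusted p = 0.0471), and control 1 lay with the other controls. PLOD1, a collagen lysyl hydroxylase, rose by 0.32 (SE 0.07, limma adjusted p = 0.0491), from between 14.1 and 15.8 FPKM over the controls to between 18.6 and 19.3 FPKM. DDIT4, a stress-induced inhibitor of mTORC1, fell by 0.42 (SE 0.09, limma adjusted p = 0.0457). None of these 3 passed when any one library other than control 1 was left out, and no other gene tested did.

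Some of these other targets had the split of ADM and BNIP3. They were picked for that likeness after their values were seen, and none passed in limma. HMOX1, a haem-degrading enzyme that other stresses induce too, read 56.6 FPKM in control 1, 16.1 and 15.4 FPKM for controls 2 and 3 and between 60.0 and 73.3 FPKM across the knockdowns. HILPDA, a lipid droplet protein, read 20.4 FPKM in control 1, 8.55 and 9.03 FPKM for controls 2 and 3 and between 23.7 and 31.1 FPKM across the knockdowns. CXCR4, a chemokine receptor, stood at 9.14, 5.35 and 3.55 FPKM across controls 1 to 3 and between 12.6 and 13.3 FPKM across the knockdowns. Their log2 fold changes were 1.44, 1.20 and 1.20, with limma adjusted p of 0.104, 0.0719 and 0.0641. WSB1 and NDUFA4L2, also picked after their values were seen, had control 1 beside the knockdowns in the lower direction. WSB1 read 19.6, 31.5 and 29.7 FPKM across controls 1 to 3 and between 19.0 and 23.0 FPKM across the knockdowns. NDUFA4L2 read 0.718, 1.79 and 1.91 FPKM and between 0.742 and 1.32 FPKM. Control 1 was nearer to the knockdowns for 24 of the 37, against 60.8% of all genes tested. Without control 1 limma called 16 of the 37 higher and 8 lower, where 28.0% of all genes were called higher and 15.7% lower.

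Glycolytic HIF targets, taken only for comparison, had 4 of 21 past the test, all of them higher (SLC2A1, HK2, LDHA and PGAM1), and a median of 0.43. Over all genes tested 4.14% were called higher. The count was 2 with median-of-ratios scaling. It was 0 when any one library other than control 1 was left out, where no gene of any kind passed. Control 1 exceeded controls 2 and 3 by a median of 0.40 over these genes and by 0.59 over the 9 genes outside glycolysis. The knockdown mean exceeded control 1 by medians of 0.13 and 0.15. No test of the difference between these lists was run.

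**Figure D4:**
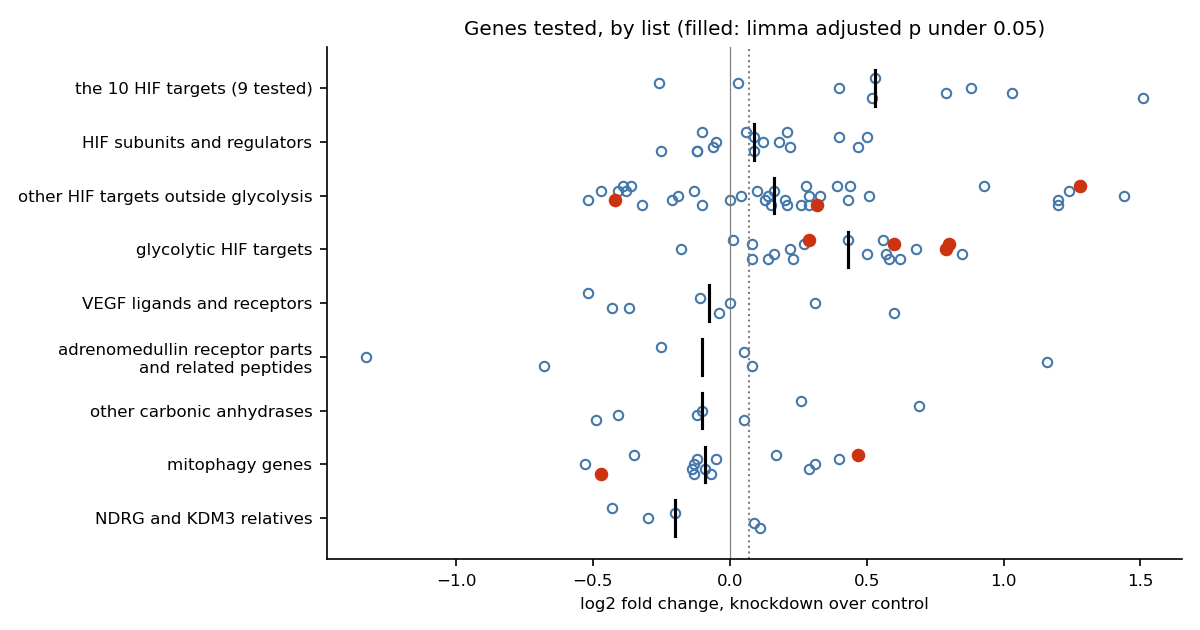
Log2 fold change (horizontal axis) of each gene tested, by list, with the median of each list as a black bar, 0 as a solid line and the median of all genes tested (0.07) as a dotted line. Filled red points passed limma at an adjusted p of 0.05: 0 of the 9 HIF targets described here, 3 of 37 other HIF targets, 4 of 21 glycolytic targets and 2 of 15 mitophagy genes.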

How the data were processed

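TRIzol extraction, oligo-dT bead enrichment, fragmentation and random priming made the libraries, per the labels' protocols, which name no step that keeps strand. The submitters' processing notes name HISAT2. For the read counter, build and annotation, the sources used here give nothing. The authors deposited FPKM per library, judged from the values, and, per the file headers, a mean normalized read signal for each group, a log2 fold change and p-values. Python 3.11.15 recovered whole reads from the deposited FPKM and group means: within 0.1 read, 100.0% of values came out whole. Positions were taken from GENCODE 29 (GRCh38), in which 96.3% of gene IDs were found.

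Of the table, 18548 genes reached 0.5 FPKM in at least 3 libraries. Their log2(FPKM + 0.1) was fitted by group with limma 3.58.1 in R 4.3.3, using a mean-variance trend, and two-sided p-values were adjusted by Benjamini-Hochberg across those genes. Fold changes on that scale understate those of low genes. The fit was also run on simulated data that held no outlying library, so that run does not bear on the effect of control 1. Alternatives were a pseudocount of 1 FPKM, no filter, a filter at a CPM of 1, median-of-ratios scaling, limma-voom on the recovered reads, no trend, an adjusted p of 0.01, the replicate number as a block and each library left out in turn. All 10 HIF targets are named, with up to 4 genes of the smallest p from each other list, while CALCRL, EGLN2, HIF1A, EPAS1 and KDM3B are named for their role. HMOX1, HILPDA, CXCR4, WSB1 and NDUFA4L2 are named for the place of control 1, and NRP1 because its groups did not overlap. The genes, lists and tests were chosen with earlier results of these data known. Marker lists for lymphocytes, endothelium, fibroblasts, Schwann cells and epithelium had 2, 2, 3, 2 and 5 genes tested, with 0 past the limma threshold. Of all genes tested 6.2% passed, so 0 from so few genes carries little information. Of the red cell markers 5 were tested and 3 passed as higher. Of the neutrophil and monocyte markers 7 were tested and 0 passed. Every pair of libraries within a group differed by more than sampling noise.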

Additional observations from a re-analysis of the deposited data

How the results depend on the processing

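Of the 9 HIF targets tested, the 8 other than BNIP3L kept their direction under every alternative run, and BNIP3L had -0.04 in place of 0.03 with median-of-ratios size factors. Leaving out 1 library at a time gave between 0 and 8 of the HIF targets past the threshold, 0 to 8093 of all genes, 0 to 5 HIF regulators, 0 to 24 other HIF targets outside glycolysis, 0 to 14 glycolytic targets, 0 to 4 VEGF genes, 0 to 3 adrenomedullin-related genes, 0 to 3 carbonic anhydrases, 0 to 8 mitophagy genes, 0 to 2 NDRG and KDM3 relatives and 0 to 10 heat shock genes. In each of these ranges the upper end is the fit without control 1, and the fits without any one of the other 5 libraries gave 0 genes (3676 to 4530 had an unadjusted p under 0.05). Limma-voom called 3130 of all genes in place of 1150, 4 HIF targets, 2 regulators, 13 other HIF targets in place of 3, 7 glycolytic targets in place of 4, 1 VEGF gene, 1 adrenomedullin-related gene, 1 carbonic anhydrase, 6 mitophagy genes in place of 2, 1 of the NDRG and KDM3 relatives and 4 heat shock genes. A filter at a CPM of 1 gave 2085 of all genes, 8 other HIF targets, 4 mitophagy genes, 1 adrenomedullin-related gene and 1 NDRG or KDM3 relative, and a pseudocount of 1 FPKM gave 7 other HIF targets. With no filter 42 of all genes passed, with no mean-variance trend 91, and at an adjusted p of 0.01 0, and these 3 settings left 0 other HIF targets, 0 glycolytic targets and 0 mitophagy genes. Median-of-ratios size factors gave 2 glycolytic targets, moved the share of calls that were higher from 66.8% to 49.5%, and moved the median of all genes from 0.07 to 0.00. With the replicate number as a block, 0 of all genes passed, so 0 of every list. Deviations of same-numbered libraries from their group means correlated at 0.15, 0.08 and 0.04 across genes. The other pairs correlated between -0.13 and 0.10, the highest being control 3 with knockdown 2. The labels give these libraries only a number, and whether they are paired was not tested. The cause of the changes between settings was not tested. Depth limits CA9 most among the 10 genes, at 2 to 9 reads per library.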

Other observations

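Most mitophagy genes other than BNIP3 and BNIP3L did not pass the test. Of 18 listed, 15 were tested, of which 1 rose, 1 fell and 13 did not pass in limma, where 4.14% of all genes rose and 2.06% fell. The median log2 fold change was -0.09. FUNDC1, a further receptor on the outer mitochondrial membrane, read 23.1, 23.5 and 24.2 FPKM across controls 1 to 3 and 33.4, 32.3 and 32.7 FPKM across the knockdowns. FUNDC1 rose by 0.47 on the log2 scale (SE 0.05, limma adjusted p = 0.0335), and control 1 was level with the other controls. GABARAPL1, an ATG8 family protein of the autophagosome, fell by 0.47 (SE 0.09, limma adjusted p = 0.045), from 46.6, 58.6 and 54.9 FPKM in the controls to between 36.9 and 39.6 FPKM. CALCOCO2, a receptor of selective autophagy, had -0.53, and BECN1, an autophagy initiation factor, had 0.29, with limma adjusted p of 0.0553 and 0.0565. Neither FUNDC1 nor GABARAPL1 passed limma in any fit without one of the libraries other than control 1, and no other gene tested did.

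Carbonic anhydrases other than CA9 had 7 of 14 genes tested and 0 past the limma threshold (2 at an unadjusted p under 0.05, 1 lower in limma-voom), with a median of -0.10. For all genes tested the shares were 6.2% past limma, 32.6% at that unadjusted p and 4.5% lower in limma-voom. CA5B, a mitochondrial enzyme, had -0.49 (limma adjusted p = 0.0888). CA5B was lower in every knockdown library than in any control, as were 14.3% of all genes tested. CA2, the abundant cytosolic enzyme, stood between 22.9 and 29 FPKM in the controls and between 28.7 and 30.9 FPKM across the knockdowns, for a log2 fold change of 0.26 (limma adjusted p = 0.139). CA12, a membrane enzyme and HIF target like CA9, read 3.18 FPKM in control 1, 5.47 and 5.73 FPKM for controls 2 and 3 and between 3.27 and 3.68 FPKM across the knockdowns. Its log2 fold change was -0.41 (limma adjusted p = 0.246), in the direction opposite to ADM and BNIP3. CA14 read 1.84 FPKM in control 1, 0.669 and 0.681 FPKM for controls 2 and 3 and between 1.46 and 1.71 FPKM across the knockdowns.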
